A study of Drosophila melanogaster with 12 samples.

Results

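The octopamine receptors examined here were the 5 genes Octbeta1R, Octbeta2R, Octbeta3R, Oamb and Oct-TyrR, looked up by FlyBase identifier in a table of 8802 genes measured in enteroblasts, the precursors of midgut enterocytes, sorted from adult Drosophila melanogaster. The family was chosen by the measured levels of Octbeta2R, which is expressed in control cells and low in the libraries labelled as carrying a hairpin against shavenbaby (svb), so that this contrast is described without a test. Octbeta2R and Octbeta3R had a row in the table and passed the filter on low counts. Octbeta1R, Oamb and Oct-TyrR had no row under their identifiers and are not analysed here.

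Octopamine is an invertebrate amine transmitter and hormone that is made from tyrosine by way of tyramine and is often compared with noradrenaline. Its receptors are G protein-coupled receptors of the cell surface. The beta class, to which Octbeta1R, Octbeta2R and Octbeta3R belong, raises cyclic AMP, Oamb is an alpha-like receptor that raises intracellular calcium, and Oct-TyrR responds to tyramine as well as octopamine and lowers cyclic AMP. The ovo gene encodes Shavenbaby, a transcription factor whose long form represses and whose processed form activates its targets.

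RNA was sequenced from 12 libraries, 3 replicates for each of 4 genotypes, which were collected on separate days. All flies were virgin females carrying esg-Gal4, UAS-GFP and tubGal80TS, aged 3 days at room temperature and then held at 29 °C for 6 days so that UAS transgenes were switched on in escargot-expressing cells. The control (genotype esg-Gal4, UAS-GFP/+; tubGal80TS/+) came from a cross to Canton-S, and the other crosses added UAS-SvbRNAi (labelled RNAiSvb), UAS-SvbACT::GFP (the constitutive activator, labelled SvbAct) or UAS-Svb3Kmut::GFP (labelled SvbRep, the constitutive repressor). Cells were sorted from the posterior midguts of pooled females for high GFP and large size, and escargot drives expression in stem cells as well as enteroblasts. The SvbAct and SvbRep proteins carry a GFP tag themselves, and the control lacked any UAS transgene other than UAS-GFP, so transgene and strain background cannot be told apart in comparisons with control.

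Library totals ran from 2186283 to 7444253 counts, SvbRep replicate 3 being the shallowest. Of 9 progenitor markers 6 had a row, and esg, Dl and hdc are not analysed here. Su(H), whose reporter is a usual enteroblast marker, was at 10.2 to 27.6 CPM and klu, Sox21a, zfh2, N and E(spl)mbeta-HLH at 149 CPM or more in all 12 libraries, CPM being a gene's reads relative to the library total, adjusted by edgeR's TMM factors. The summed level of the 6 was 4558 to 5499 CPM in control, 2893 to 3643 CPM in the hairpin-labelled libraries, 4843 to 5967 CPM in SvbAct and 3128 to 3460 CPM in SvbRep. The 6 genes did not move together. In control zfh2 was at 2294 to 3073 CPM, against 855 to 1480 CPM in the hairpin-labelled libraries, 2598 to 3710 CPM in SvbAct and 1226 to 1484 CPM in SvbRep. In the hairpin-labelled libraries klu was also below control (331 to 439 against 662 to 899 CPM) and N above it (899.7 to 934 against 771 to 839 CPM). Sox21a and E(spl)mbeta-HLH overlapped control there, and Su(H) was at 19.4 to 22.9 against 14.5 to 19.4 CPM. The targeted gene ovo had 9, 117 and 1 counts in control and 195, 126 and 97 counts in the hairpin-labelled libraries, so its reads were not lower under that label, and directions below are those of the labelled groups. Counting is not stated to use strand. ovo reached 2005 to 2604 CPM in SvbAct and 1111 to 1751 CPM in SvbRep.

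Octbeta2R (FBgn0038063) lies on the minus strand of chromosome 3R from 12550625 to 12595725 in the BDGP6.54 annotation and has 6 annotated transcripts with 4 start sites. Octbeta3R (FBgn0250910) lies directly downstream on the same strand, from 12511570 to 12548229, and 2395 bases separate these genes. The microRNA gene mir-284 (12551515 to 12551614) lies inside an untranslated part of an Octbeta2R exon, and 2 of the 6 transcripts extend over its position. The exons of Octbeta3R share no base with another gene, although Hug and lncRNA:CR46016 lie within its introns. The counts are per gene, so transcripts with different starts or ends were not separated.

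Octbeta2R was the more abundant receptor of the pair in control cells, and it was lower when the activator form was expressed, while its difference between the repressor form and control did not pass the test. The control libraries held 450, 612 and 468 reads of Octbeta2R, which is 112, 85.5 and 131 CPM. In the SvbAct libraries it had 264, 88 and 265 reads, or 43.7, 20.9 and 50.2 CPM. In the SvbRep libraries it had 664, 677 and 213 reads, or 101, 85.5 and 99.5 CPM. Every SvbAct library lay below every control and SvbRep library, while the control and SvbRep libraries overlapped. In the hairpin-labelled libraries Octbeta2R had 9, 8 and 12 reads, or 2.82, 1.31 and 1.91 CPM, below all other libraries and above the level of 3 counts in each of them.

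**Figure D1:**
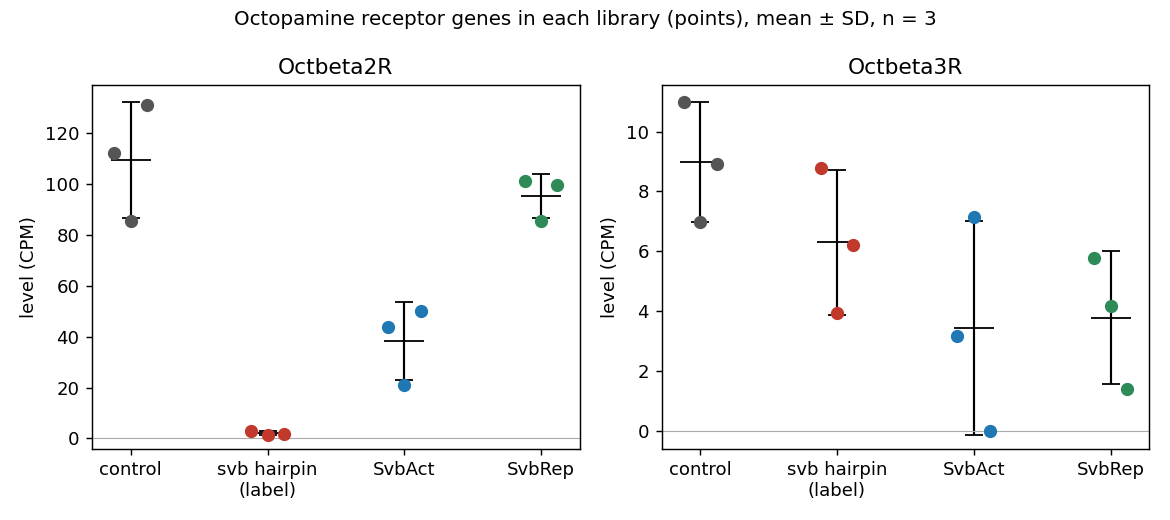
Level of Octbeta2R (left) and Octbeta3R (right) in CPM for each library, by genotype, with points for the 3 libraries of a group and bars for the mean ± SD. Octbeta2R is highest in control and SvbRep (85.5 to 131 CPM) and intermediate in SvbAct (20.9 to 50.2 CPM). It is lowest in the hairpin-labelled libraries (1.31 to 2.82 CPM). Octbeta3R lies at 0 to 11 CPM, with 6.98 to 11 CPM in control and 1.40 to 5.77 CPM in SvbRep. No tested difference of Octbeta3R passed the test.

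The mean level of Octbeta2R fell from 109 ± 22.7 CPM in control to 38.3 ± 15.4 CPM in SvbAct (SD, n = 3 each), which is 35% of control. The log2 fold change was -1.51 ± 0.29 (SE), and its 95% interval ran from -2.13 to -0.89 (adjusted p 0.00508, edgeR quasi-likelihood over all 8069 tested genes). It was 1 of the 2 receptors tested, in a comparison that called 4.46% of all genes, 1.91% as higher and 2.55% as lower. SvbAct replicate 2 had the lowest level, and without it the log2 fold change was -1.20 (adjusted p 0.0219 in edgeR). The comparison shares its control libraries with the contrast by which Octbeta2R was picked.

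The comparison of SvbAct with SvbRep uses neither the control nor the hairpin-labelled libraries in its means, although the fit takes the spread from all 12 libraries. Octbeta2R was lower in SvbAct than in SvbRep, at 38.3 ± 15.4 against 95.3 ± 8.48 CPM (SD, n = 3 each). On the log2 scale the difference was -1.31 ± 0.29 (SE, 95% interval from -1.93 to -0.69, adjusted p 0.00939 in edgeR). This comparison called 7.21% of all tested genes, with 3.53% of the tested genes higher and 3.68% lower in SvbAct, and Octbeta2R was again 1 of 2 receptors tested. The call held without SvbRep replicate 3, the shallowest library (log2 fold change -1.30, adjusted p 0.0114 in edgeR).

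In SvbRep against control, the log2 fold change of Octbeta2R was -0.20 ± 0.29 (SE, adjusted p 0.863 in edgeR). The 95% interval of this difference ran from -0.80 to 0.40 on the log2 scale. Neither receptor was called here, in a comparison that called 168 genes or 2.08% of those tested, 0.731% as higher and 1.35% as lower. Deviations of same-numbered libraries of these groups from their group means correlated at 0.175, 0.108 and 0.256, and differently numbered pairs were not compared. A fit with these numbers as blocks called 290 genes, again without either receptor.

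The contrast that picked the gene is given as a description, and it called 8.50% of tested genes, 1.85% as higher and 6.66% as lower. Octbeta2R averaged 2.01 ± 0.761 CPM in the hairpin-labelled libraries (SD, n = 3), which is 1.84% of the control mean, a fitted log2 difference of -5.82. In order of level the groups were control, SvbRep, SvbAct and the hairpin-labelled libraries. The neighbours control and SvbRep did not differ beyond their spread, SvbRep and SvbAct did, and the ranges of SvbAct and the hairpin-labelled libraries did not overlap, at 20.9 to 50.2 against 1.31 to 2.82 CPM.

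In RNA from sorted cells, fewer expressing cells and less RNA per cell cannot be told apart. Octopamine receptors are also known from neurons and muscle, so markers of those cells were read in the same libraries. The neuronal genes nSyb, Syt1 and brp reached at most 2.65, 2.22 and 4.89 CPM in any library, while elav was at 55.6 to 174 CPM. The glial marker repo had no row. The summed level of the 5 neuronal markers with a row ran from 105 to 180.0 CPM in control and 119 to 169.7 CPM in the hairpin-labelled libraries. It ran from 129 to 182 CPM in SvbAct and 58.4 to 112 CPM in SvbRep, and elav made up most of it. The summed level of the 9 visceral muscle markers ran from 377 to 386 CPM in control, 270.1 to 356 CPM in the hairpin-labelled libraries, 295 to 299.6 CPM in SvbAct and 213 to 313 CPM in SvbRep. Mef2 made up most of it, at 199 to 357 CPM. Of the 7 muscle genes tested by edgeR, 0 were called in SvbAct against control, where 4.46% of all genes were. In the hairpin-labelled comparison 0 were called (8.50% of all genes). In SvbRep against control 1 of the 7 was called as lower (1.35% of all genes were). Between SvbAct and SvbRep 1 was called as higher in SvbAct (3.53% of all genes were). The genes called are not named here. The structural muscle genes up, bt and Mhc had their highest values in control. Mlc1 peaked in SvbRep (1.87 CPM), and Act57B spanned 0 to 7.96 CPM within control. The control range of sls, 9.24 to 26.1 CPM, enclosed its SvbAct range of 14 to 21.6 CPM. The troponin gene up was at 3.99 to 5.3 CPM in control and at most 1.57 CPM in the hairpin-labelled libraries, 1.66 CPM in SvbAct and 1.67 CPM in SvbRep. The projectin gene bt was at 4.74 to 13.3 CPM in control, at most 1.75 CPM in the hairpin-labelled libraries, at most 3.41 CPM in SvbAct and 3.27 to 7.83 CPM in SvbRep. The myosin gene Mhc was at 6.99 to 19.8 CPM in control, 2.22 to 3.44 CPM in the hairpin-labelled libraries, 1.99 to 7.39 CPM in SvbAct and 0.253 to 2.8 CPM in SvbRep. The troponin gene wupA was highest in SvbAct, at 4.92 to 11.1 CPM, and at most 2.79 CPM in any other library. The 9 enterocyte markers summed to 563 to 734 CPM in control, 319 to 416 CPM in the hairpin-labelled libraries, 415 to 668 CPM in SvbAct and 864 to 1040 CPM in SvbRep. Myo31DF made up most of this sum, at 488 to 627, 226 to 267, 344 to 480.4 and 664 to 892 CPM in the same order. Apart from Myo31DF, the ranges of the enterocyte markers overlapped between control and the hairpin-labelled libraries. Myo61F, like Myo31DF, was higher in SvbRep, at 124 to 184 CPM against 43.8 to 102 CPM in control and 34.7 to 69.9 CPM in SvbAct. The ranges of the other enterocyte markers overlapped between SvbRep and control. The 9 enteroendocrine markers summed to 6.74 to 28.1 CPM in control, 36 to 97.2 CPM in the hairpin-labelled libraries, 9.5 to 46.4 CPM in SvbAct and 5.6 to 15.3 CPM in SvbRep. Within the hairpin-labelled libraries Tk ranged from 0 to 53.1 CPM and Dh31 from 0 to 22.6 CPM, while pros was at 11.5 to 29.2 CPM (3.63 to 8.1 CPM in control). Of the 8 enterocyte genes tested, edgeR called 2 as lower in SvbAct than in SvbRep (3.68% of all genes). It called 1 as lower in the hairpin-labelled comparison (6.66%) and 0 in SvbAct or SvbRep against control (4.46% and 2.08%). Of the 7 enteroendocrine genes tested, 1 was called as higher in SvbAct than in control (1.91%) and 1 as higher than in SvbRep (3.53%). In the SvbRep and hairpin-labelled comparisons with control 0 of the 7 were called (2.08% and 8.50%). The part of these cell types in the Octbeta2R differences was not tested. The hemocyte marker Hml had no counts in any of the 12 libraries.

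Octbeta3R, the neighbouring beta receptor, was detected at a low level with no change that passed the test. It had 44, 50 and 32 reads in the control libraries, or 11, 6.98 and 8.93 CPM. It had 28, 24 and 39 reads in the hairpin-labelled libraries (8.78, 3.93 and 6.20 CPM) and 38, 33 and 3 reads in SvbRep (5.77, 4.17 and 1.40 CPM). In SvbAct it had 19, 30 and 0 reads, or 3.15, 7.13 and 0 CPM, where 3 counts in the library without reads correspond to 0.568 CPM. The hairpin-labelled and SvbAct ranges overlapped the control range. The SvbRep libraries all lay below it, at a mean of 42.2% of control, a difference that did not pass the test (adjusted p 0.643 in edgeR). The share of all genes whose libraries separate in this way was not counted.

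The log2 fold change of Octbeta3R was -1.40 ± 0.86 (SE) in SvbAct against control (95% interval from -3.22 to 0.42, adjusted p 0.469 in edgeR). In SvbRep against control it was -1.17 ± 0.85 (SE) (interval from -2.97 to 0.63, adjusted p 0.643 in edgeR). Between SvbAct and SvbRep it was -0.23 ± 0.86 (SE) (interval from -2.05 to 1.60, adjusted p 0.932 in edgeR), and its sign turned without SvbAct replicate 3 (0.35) or SvbRep replicate 1 (0.17). Both comparisons with SvbAct have intervals that include a change of the size measured for Octbeta2R as well as 0. In the contrast that picked the family its fitted log2 difference was -0.52, and its mean in the hairpin-labelled libraries was 70.3% of the control mean.

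**Figure D2:**
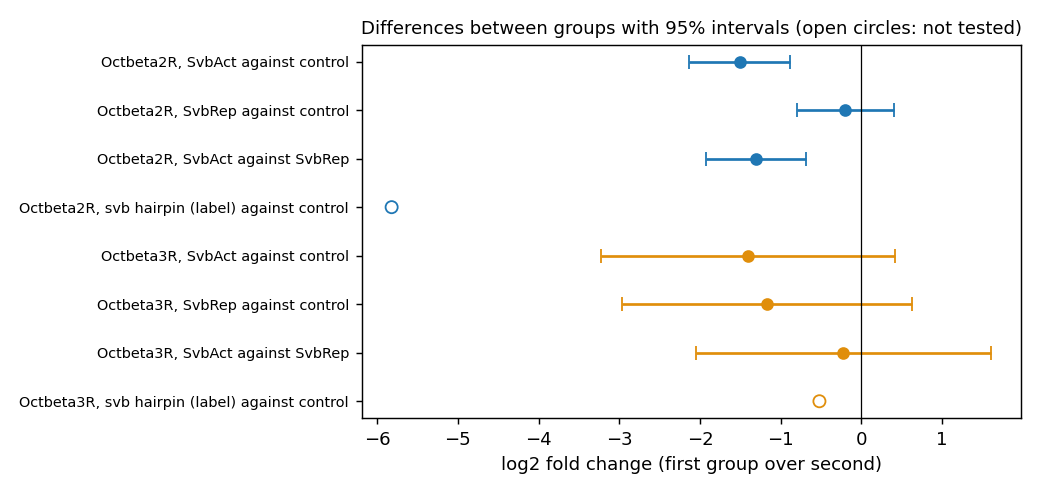
Log2 fold change of each receptor for 4 comparisons, with 95% intervals from the edgeR fit for the 3 that were tested and open circles for the contrast that picked the family. The intervals of Octbeta2R exclude 0 in both comparisons with SvbAct (-1.51 and -1.31), and all 3 intervals of Octbeta3R include 0.

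Levels of different genes were compared per kilobase of annotated exon. In control, Octbeta2R was at 14.6 ± 3.02 and Octbeta3R at 1.47 ± 0.328 CPM per kb (SD, n = 3 each). The Octbeta2R level lay above that of 57.5% of the 8686 genes with an exon length, and the Octbeta3R level above that of 17.3%. Octbeta2R accounted for 89.2% to 92.2% of the summed level of these receptors per kb in the control libraries, 93.4% to 98.3% in SvbRep and 70.4% to 100.0% in SvbAct. In the hairpin-labelled libraries it accounted for 20% to 21.3%, so that Octbeta3R was the higher of the pair in all 3. Octbeta2R was picked for its low level there, so this share is a description. It rests on 8 to 12 reads of Octbeta2R and 24 to 39 reads of Octbeta3R per library. The share of Octbeta2R is taken within a library and does not depend on how libraries are scaled.

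The log2 fold changes of Octbeta2R in the authors' deposited table were -1.49 for SvbAct against control, -0.14 for SvbRep against control and -1.35 for SvbAct against SvbRep, and the authors called the first and the last as lower. For Octbeta3R the authors' deposited table gave -1.36, -1.13 and -0.23 for the same comparisons, with no call.

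The genes whose level followed Octbeta2R most closely over the 12 libraries were named by Pearson's r of log2 CPM among 6548 other genes, each averaging 2 or more on that scale. They were CG42748 (r = 0.986), TyrR (0.983), CG8620 (0.976), stl (0.973) and CG5849 (0.97). These values share libraries and depth with Octbeta2R and carry the contrast by which it was picked, so they are a description. The neighbour Octbeta3R had an r of -0.11 with Octbeta2R, and the serotonin receptor gene 5-HT7 an r of 0.48.

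TyrR (FBgn0038542), which lies elsewhere on 3R, encodes a receptor for tyramine, the precursor of octopamine. It had 265, 179 and 251 CPM in control, 46.1, 34.7 and 53.9 CPM in the hairpin-labelled libraries, 136, 124 and 184 CPM in SvbAct and 218, 268 and 228 CPM in SvbRep. The order of its group means, with SvbRep at 238 and control at 232 CPM, differed from that of Octbeta2R at the top, and the hairpin-labelled libraries were again below all others. Between SvbAct and SvbRep TyrR differed by -0.68 ± 0.22 (SE) on the log2 scale (adjusted p 0.075 in edgeR), and between SvbAct and control by -0.64 ± 0.22 (adjusted p 0.122), so neither passed the threshold. Per kb of exon TyrR was at 42.2 CPM in control, above Octbeta2R. The related TyrRII, the next gene to TyrR on 3R, was at 2.93 to 8.09 CPM in control and passed the test in no comparison.

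**Figure D3:**
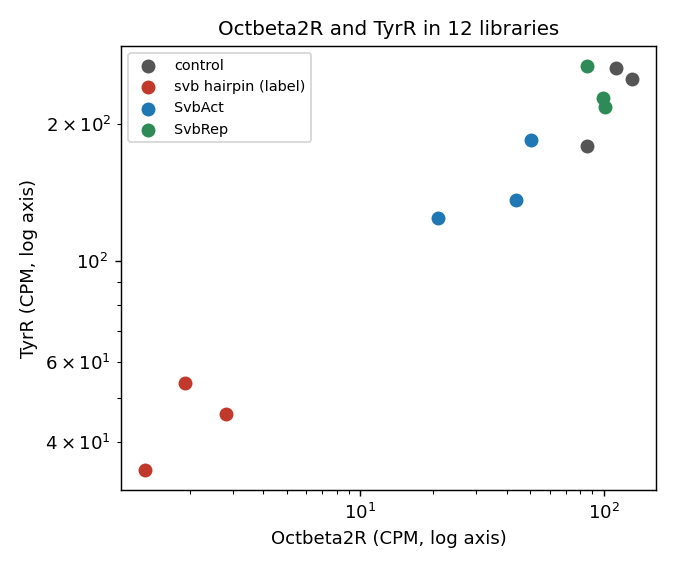
Level of TyrR against Octbeta2R in CPM on log axes, with 1 point per library and colours for the 4 genotypes. The hairpin-labelled libraries lie at the lower left (1.31 to 2.82 CPM of Octbeta2R), the SvbAct libraries in between, and the control and SvbRep libraries together at the upper right.

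Within 100 kb of either end of Octbeta2R, 19 tested genes besides Octbeta3R were measured. In SvbAct against control and in SvbRep against control 1 of the 19 was called, the heat shock gene Hsp70Ba at log2 fold changes of -3.13 and -2.95 (4.46% and 2.08% of all tested genes were called), whose counts are uncertain because near-identical copies lie beside it. Between SvbAct and SvbRep 3 of the 19 were called, Dtg, Hsp70Bc and CG18549 (7.21% of all), all higher in SvbAct, whereas Octbeta2R was lower. Hsp70Bc is another of the near-identical heat shock copies, so its counts are uncertain as well. In the hairpin-labelled comparison 4 of the 19 were called (8.50% of all), kar at -2.13, Dtg at -1.06, Hsp70Ba at -2.68 and Hsp70Bc at 1.30 on the log2 scale. These neighbours were named after their values were seen. The nearest tested gene on the upstream side, Vha55, starts 32.1 kb from the farthest Octbeta2R start and had log2 fold changes of -0.59 in SvbAct and 0.01 in SvbRep against control, neither of which passed the test.

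**Figure D4:**
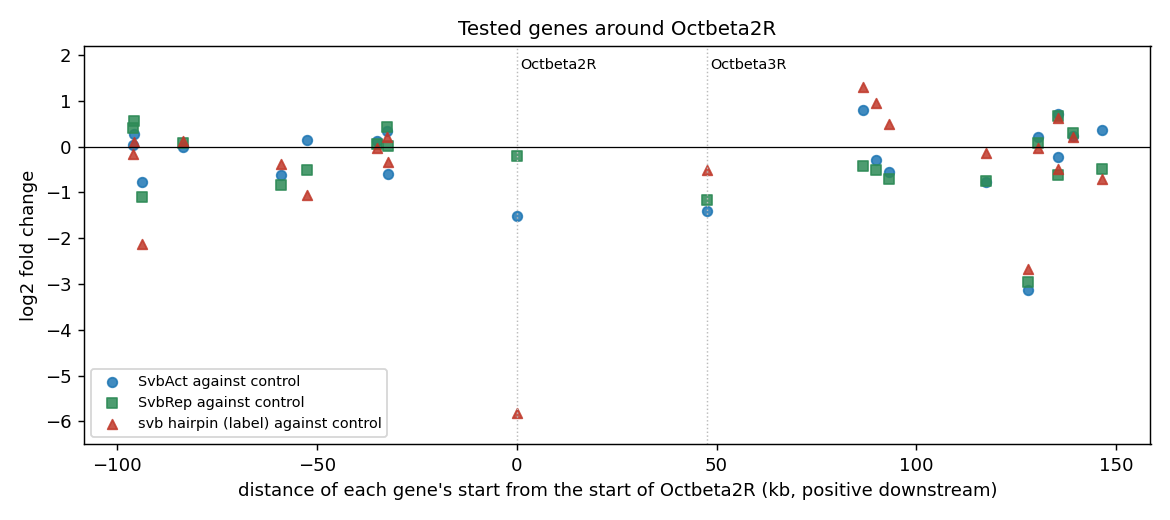
Log2 fold change of tested genes around Octbeta2R for the 3 comparisons with control, against the distance of each gene's start from the Octbeta2R start in kb, positive in the direction of its transcription. Octbeta2R stands at 0 kb with -1.51 in SvbAct and -5.82 in the hairpin-labelled libraries, and Octbeta3R at 47.5 kb with -1.40 and -0.52.

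Genes that make octopamine had few reads in the libraries in which Octbeta2R was measured. Tbh, the enzyme that turns tyramine into octopamine, had at most 9 reads in any library and was not tested. The tyrosine decarboxylases Tdc1 and Tdc2, which make tyramine, had 2 to 35 and 2 to 31 reads per library, and neither passed the test in any comparison. Vmat, the vesicle transporter of amines, had no row and is not analysed here. Of the other amine receptors, 8 of 12 had a row and 4 were tested. Of these, 0 of 4 were called by edgeR in SvbAct against control, SvbRep against control and SvbAct against SvbRep, where 4.46%, 2.08% and 7.21% of all tested genes were called. TyrR, 1 of the 4, was called as lower in the hairpin-labelled comparison, where its log2 fold change was -2.37 and 8.50% of all genes were called.

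Genes of the cyclic AMP and calcium pathways, of receptor desensitisation and of amine synthesis were counted by list. Whether any of them responds to Octbeta2R was not tested. The cyclic AMP list took in phosphodiesterases whether or not they cleave cyclic AMP, so its shares are not those of cyclic AMP signalling alone. Of its 23 tested genes, 5 were called between SvbAct and SvbRep (21.7%, against 7.21% of all genes). The median log2 fold change of the 23 was 0.17, against 0.01 for all tested genes. The cyclase Ac13E was higher in SvbAct by 2.26 ± 0.37 (SE) and so were the cyclic nucleotide phosphodiesterases Pde9 by 3.96 ± 0.61, Pde6 by 1.50 ± 0.26 and Pde11 by 0.60 ± 0.16, all as log2 fold changes. Their adjusted p in edgeR's test was 0.00156 for Ac13E, 4.07e-04 for Pde9, 0.00107 for Pde6 and 0.0334 for Pde11. The cyclic AMP-binding exchange factor Epac, named after its values were seen, was lower by a log2 fold change of -1.32 ± 0.30 (adjusted p 0.0108 in edgeR's test). Pde11 lost its call without any of the 6 SvbAct and SvbRep libraries in turn (log2 fold changes of 0.54 to 0.60, adjusted p up to 0.115 in edgeR's test) and with only those groups fitted (0.169), and Epac without SvbAct replicate 2 or SvbRep replicate 2 (up to 0.0673). In SvbAct against control and in SvbRep against control 2 of the 23 were called (8.7%, against 4.46% and 2.08% of all genes). In the first Pde9 was higher by 1.95 ± 0.54 (adjusted p 0.0496), but it lost its call without any of the control replicates or without SvbAct replicate 1 or 2 (log2 fold changes of 1.53 to 2.43, adjusted p up to 0.191 in edgeR's test), and also with no robust estimation (0.0556) and with only those groups fitted (0.0512). The protein kinase A regulatory subunit Pka-R1 fell in SvbAct and in SvbRep, to log2 fold changes of -0.77 ± 0.19 and -0.93 ± 0.19 against control (adjusted p 0.0273 and 0.0136 in edgeR's test), the first call being lost without any control replicate or without SvbAct replicate 1 or 2 (adjusted p up to 0.146), and the second without control replicate 1 or 3 or SvbRep replicate 2 (up to 0.112) and with only those groups fitted (0.0566). Pde11 was also lower in SvbRep than in control, at -0.71 ± 0.16 (adjusted p 0.0299), and lost that call without control replicate 1 or 3 or any SvbRep replicate (up to 0.206 in edgeR's test) and with only those groups fitted (0.162). In the comparison that picked Octbeta2R, 4 of the 23 were called (17.4%, against 8.50% of all genes), 1 as higher and 3 as lower. Given as a description, the log2 differences there were 3.30 for the phosphodiesterase Pde1c, -1.68 for the cyclase rut, -1.04 for Pka-R1 and -0.69 for Pde11. The calls of rut and Pka-R1 held in all 12 alternatives, while Pde1c lost its call without control replicate 2 or hairpin-labelled replicate 1 or 3, and Pde11 without control replicate 1 or 3 or any hairpin-labelled replicate.

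Of 14 tested calcium pathway genes, 2 were called between SvbAct and SvbRep (14.3%, against 7.21% of all genes) and 2 in SvbAct against control (14.3%, against 4.46%). The phospholipase C norpA had a log2 fold change of 1.68 ± 0.17 (SE) in SvbAct over SvbRep (adjusted p 5.83e-06 in edgeR's test) and of 1.16 ± 0.17 over control (adjusted p 4.11e-04). The inositol trisphosphate receptor gene Itpr was higher than in SvbRep by 0.87 ± 0.20 (adjusted p 0.0116 in edgeR's test), a call lost without SvbAct replicate 2 (adjusted p 0.0612) and with only those groups fitted (0.0618). The protein kinase C gene Pkc53E had 28, 19 and 30 reads in SvbAct and at most 1 in a control library (adjusted p 0.0498 in edgeR's test), and lost its call without any SvbAct or control replicate (up to 0.200), with RLE size factors (0.0501) and with no filter on low counts (0.0613). In SvbRep against control 0 of the 14 were called by edgeR (2.08% of all genes were). In the hairpin-labelled comparison 2 were called as lower (14.3%, against 6.66% of all genes called as lower), the phospholipase C gene Plc21C at a log2 difference of -0.70 and Itpr at -0.69. Plc21C lost that call without any control or hairpin-labelled replicate, with RLE size factors and with no filter on low counts. Itpr lost it without any control replicate, without hairpin-labelled replicate 1 or 3 and with no filter on low counts. Of 4 tested genes of receptor desensitisation, 0 were called by edgeR in the 3 tested comparisons of Octbeta2R (4.46%, 2.08% and 7.21% of all genes were), and 1, the receptor kinase gene Gprk2, was called as lower in the hairpin-labelled comparison (6.66% of all genes were). Its log2 difference was -0.81, and the call was lost without control replicate 3 or hairpin-labelled replicate 1 or 3. Of 3 tested genes of amine synthesis, Hn, a hydroxylase of aromatic amino acids, had 33, 29 and 6 reads in SvbAct and none in any SvbRep library, at least 6.04-fold higher against 3 counts per library (adjusted p 0.0262 in edgeR's test), and lost its call without SvbAct replicate 1 or 2 or SvbRep replicate 1 or 2 (up to 0.109).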

How the data were processed

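The authors deposited read counts, whole numbers for each gene in each library, together with their own log2 fold changes, unadjusted p-values and a call score of 1, 0 or -1 per comparison, per the file headers. The submitters' processing notes name STAR 2.5.2b, HTSeq 0.6.0, edgeR and the dm6 build, with no role given. The annotation, the use of strand and the filter on genes are not given in the sources used here. Only the counts entered the fits. The members and gene lists were chosen with earlier results of these data known.

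Counts were fitted in R 4.3.3 with edgeR 4.0.16 (filterByExpr by group, TMM, 1 mean per group over all 12 libraries, robust quasi-likelihood F test, Benjamini-Hochberg over 8069 genes, threshold 0.05). The SE is the log2 fold change divided by the square root of F. Per kb values divide CPM by the union of exons in BDGP6.54 (Ensembl release 115). The pipeline was checked on simulated counts. Floors of 3 counts cover counting error only. Pathway genes named were the 3 called with the largest change per list and comparison, besides the genes that make octopamine, and a gene named for 1 comparison was given in others too. Epac, Pde11 outside SvbRep against control, and the neighbours of Octbeta2R were added after their values were seen. Per the design text, replicates were made on different days; it does not say that a number marks a shared day. Same-numbered deviations correlated at 0.175, 0.108 and 0.256 between SvbRep and control, all above 0.1, and at -0.0174 to 0.299 in the other comparisons. Alternatives were DESeq2 1.42.0, other scaling, no filter, no robust estimation, only the groups compared, the replicate block, and leaving out each replicate. Sequences were not used here.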

Additional observations from a re-analysis of the deposited data

How the results depend on the processing

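Octbeta2R kept its direction and its side of the threshold in all 12 alternatives of each of the 3 tested comparisons. In the untested hairpin-labelled comparison its log2 difference was -6.02 to -5.52 when a replicate was left out. Octbeta2R was picked by that contrast, so its direction there is a description. Its adjusted p ranged up to 0.0364 in SvbAct against control, where leaving out a replicate gave log2 fold changes of -1.73 to -1.20, and up to 0.0397 between SvbAct and SvbRep (-1.56 to -1.06). With the replicate block these log2 fold changes were -1.56 and -1.39, and no call on a receptor changed. Octbeta3R changed sign between SvbAct and SvbRep, where no alternative gave a call (adjusted p 0.54 or more), at 0.35 without SvbAct replicate 3 and 0.17 without SvbRep replicate 1, in a range of -1.32 to 0.35. The counts of called genes moved more. DESeq2 called 616 genes in SvbAct against control (360 in edgeR) and 321 in SvbRep against control (168). The replicate block gave 290 in the latter. Fits of only the groups compared gave 340 between SvbAct and SvbRep (582) and 1091 in the hairpin-labelled comparison (686). Leaving out a replicate gave 175 to 279, 54 to 242, 355 to 599 and 407 to 549 genes for SvbAct against control, SvbRep against control, SvbAct against SvbRep and the hairpin-labelled comparison. The count moved by over 1.5 times in the first without any control replicate (175, 208 and 185) or SvbAct replicate 2 (227), in the second without control replicate 1 (54), control replicate 3 (76) or SvbRep replicate 2 (67), in the third without SvbRep replicate 2 (355) and in the last without control replicate 3 (407) or hairpin-labelled replicate 3 (435). Of the calls in SvbRep against control 64.9% were lower, and 46.3% of 121 calls when only those groups were fitted. Fewer samples enter those fits, and the cause of the other shifts was not tested. The low counts of Octbeta3R limit what could be detected for it.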
